A study of Mus musculus with 2 samples.

Results

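Megakaryocytes and platelets were taken here as the cell barcodes that hold their granule and surface genes, chosen by a rule on counts of unique molecular identifiers (UMIs). A barcode was a member if it had at least 1000 UMIs over mouse genes with at most 20% of them mitochondrial, at least 5 UMIs of Pf4 and Ppbp together, and at least 3 UMIs of Itga2b, Gp9, Gp1bb and Treml1 together. The rule found 788 members among 21809 barcodes that passed the depth and mitochondrial limits. Library 1 held 329 of 9365, which is 3.51% (exact binomial interval 3.15 to 3.91), and library 2 held 459 of 12444, which is 3.69% (3.36 to 4.03). These 6 genes define the members, and their levels are no finding.

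The libraries are single-cell RNA libraries of alveolar bone, the jaw bone that holds the tooth roots, from C57BL/6J mice of 6 to 8 weeks. Per the labels, 12 mice were split into a tooth movement group, in which a nickel-titanium coil spring pulled the right upper first molar with a constant 25 g, and controls fitted with an unloaded spring. The molar was taken out on day 7, bone within 1 mm of its socket was collected, and the tissue of 6 mice per group was pooled, digested for 60 min and treated with a red-cell lysis buffer. No label ties either library to a group, so force was not compared with control, and the libraries are called library 1 and library 2. Each is 1 pool without replicates. No test was made, levels are counts per 1000000 UMIs (CPM) of UMIs summed over barcodes, and every interval is an exact 95% interval for counting error only. Over mouse genes the depth was 77572847 UMIs in library 1 and 116775367 UMIs in library 2, with a median of 3518 and 4453 UMIs per passing barcode.

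Megakaryocytes are large polyploid cells of the marrow that release platelets as fragments of long cytoplasmic extensions. Platelets have no nucleus but keep messenger RNA, stick to damaged vessel walls through the glycoprotein Ib-IX-V complex and collagen receptors, and clump through the integrin made of Itga2b and Itgb3. Their alpha granules hold chemokines, clotting proteins and growth factors, among them transforming growth factor beta, which also acts in bone. A barcode may hold a megakaryocyte, a part of one, a platelet or a platelet attached to another cell. It may also hold another cell with stray RNA of platelet genes, and the counts do not tell these cases apart.

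Members ranged widely in depth. Library 1 members had 1001 to 113336 UMIs with a median of 2432, against a median of 3559 in all other passing barcodes. Library 2 members had 1004 to 86898 UMIs with a median of 2798, against 4501 in the others. The shallowest members were the most numerous of 4 depth tiers, with 135 of 329 and 175 of 459 under 2000 UMIs. The 50 and 79 members with 10000 or more UMIs nevertheless held 64.4% and 65.5% of all member UMIs, so summed levels lean on them. The median number of genes was 1155 and 1263 in members.

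The share of a member's UMIs that lay in the 6 genes of the rule also varied, with a median of 3.88% in library 1 and 5.01% in library 2 and a range of 0.0591 to 9.15% and 0.0553 to 9.99%. It was 3% or more in 208 and 319 members, from 1 to 3% in 57 and 74, and under 1% in 64 and 66. These limits were set after the spread had been seen. Among all other passing barcodes the median share was 0 in both libraries. The threshold on depth lay within a continuous run of such barcodes, since 39 and 40 barcodes from 900 up to 1000 UMIs met both marker minimums, with a median share of 4.01% and 5.50%, against 23 and 26 members in the 100 UMIs from the minimum upward, with 4.52% and 5.49%. At the minimum of Pf4 and Ppbp, 1 and 2 barcodes lay just outside with 4 UMIs, and 4 and 0 lay just inside with 5 UMIs. At the second marker minimum, 46 and 44 barcodes lay just outside with 2 UMIs and had a median share of 0.599% and 0.521%, while 32 and 51 lay just inside with 3 UMIs and had 1.47% and 1.42%. No barcode was a member in both libraries, and 75 barcodes passed in both. Of the members, 5 of library 1 and 6 of library 2 had a barcode that also passed in the other library. Malat1, a nuclear RNA that anucleate platelets are poor in, made up a median of 0.194% and 0.157% of UMIs in members, against 0.336% and 0.240% in all other barcodes. It was not clearly rarer in the shallowest members when each barcode was thinned to 1000 UMIs. In library 1 it was then found in 86.7% of members under 2000 UMIs (79.7 to 91.9) and 88.0% of those with 10000 or more (75.7 to 95.5). In library 2 these shares were 81.7% (75.2 to 87.1) and 68.4% (56.9 to 78.4).

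**Figure D1:**
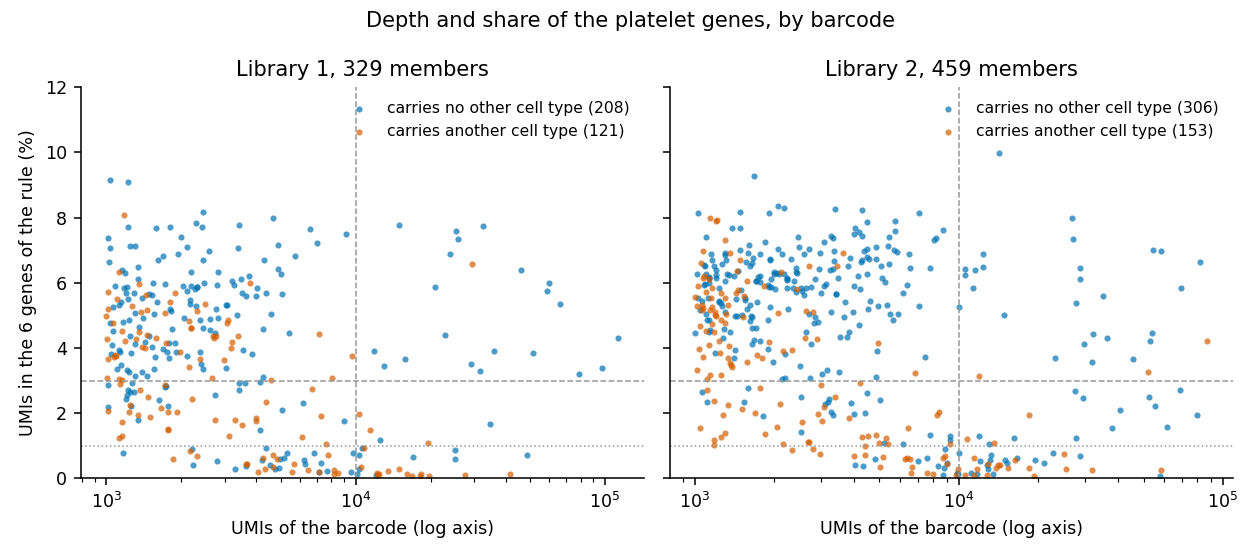
Each point is 1 member. The horizontal axis gives its UMIs on a log scale and the vertical axis the percent of them in the 6 genes of the rule, and orange points carry the genes of another cell type. Dashed lines mark 10000 UMIs and 3%, and the dotted line marks 1%. The 208 and 319 members at or above 3% lie mostly at the left, and a band of barcodes under 1% runs along the bottom, mostly above 2000 UMIs.

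Genes of other cells were present on many members. A barcode was said to carry another type if it held at least 5 UMIs of one of 12 other marker lists and these made up at least 1% of its UMIs. That held for 121 members of library 1, which is 36.8% (31.6 to 42.2), and for 153 of library 2, which is 33.3% (29.0 to 37.9), against 77.0% and 79.1% of all other passing barcodes. The other barcodes include cells of the listed types themselves, so their shares do not show that members are cleaner. Neutrophil genes were carried by 72 and 79 members, stromal and bone genes by 37 and 36, and haemoglobin and other erythroid genes by 20 and 49. The B-cell list was carried by 13 members of library 2 and none of library 1, where the exact upper bound is 1.11%. The limit of 1% can miss lists of low level. In all other barcodes the endothelial list made up at most 1.41% and 1.46% of UMIs, and 9 and 16 barcodes carried it. An endothelial class set by low marker minimums nevertheless held 187 and 473 barcodes. Where the rule genes reached 3% or more, 26.9% and 24.1% of members carried another type, and under 1% it was 51.6% and 56.1%.

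These lists were also high in free RNA, the RNA summed over barcodes with at most 49 UMIs. The neutrophil list, which includes S100a8 and S100a9, stood at 10898 and 16299 CPM in members, against 63097 and 67918 CPM in all other barcodes, with 56992 and 62059 CPM in free RNA. The stromal and bone list, which includes Col1a1 and Col1a2, stood at 19874 and 6909 CPM in members and at 1910 and 1554 CPM in members of 3% or more, against 42618 and 33948 CPM in the others. All 8 genes of each of these lists had UMIs in members. Cd3d of T cells, Stab2 of sinusoids, Ocstamp of osteoclasts and Klk1 of the plasmacytoid list were at 0 in members of library 1, and Stab2 was at 0 in those of library 2. Genes of the rule were in free RNA too, with 1207 and 1211 CPM of Pf4 and 232 and 205 CPM of Ppbp. Members with 10000 or more UMIs and under 1% in the rule genes had a median share of 0.163% and 0.399%. How much of such shares is free RNA was not tested. Free RNA, attached cells and 2 cells in 1 barcode were not told apart, and no doublet caller was run.

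Against all other passing barcodes, 433 of 17179 genes with enough UMIs were at least 4-fold higher in members in both libraries, which is 2.52%, and 648 were at least 4-fold lower in both, which is 3.77%. The count of lower genes depended on which members were summed, with 2442 in members of 3% or more and 1903 in members that carry no other type. The members were chosen by genes of this same contrast, so these counts describe the members and test nothing. The median log2 ratio over all those genes was -0.19 in library 1 and -0.14 in library 2. Leaving out the 6 rule genes, and ranked by the lower of the ratios of the libraries, the first gene was Gp1ba, the chain of glycoprotein Ib that binds von Willebrand factor. It had 194 CPM (176 to 213) in members of library 1, against 0.668 CPM in the others, a log2 ratio of 8.18. In library 2 it had 182 CPM (168 to 197) in members, against 0.368 CPM in the others, a log2 ratio of 8.95, below the 9.20 of A930009A15Rik in that library.

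The 25 genes with the largest ratios held many genes of the platelet surface and its signalling. Among them were Gp5, the collagen receptor Gp6, Clec1b, the receptor for podoplanin, Mpig6b, an inhibitory receptor, the thrombin receptor subunit F2rl2, the lipoxygenase Alox12, the inhibitory G protein Gnaz, the adhesion receptor Cd226 and the alpha granule protein Mmrn1. Less familiar members of that group were the potassium channel Kcnj5, the ion exchanger Slc24a5, the protease Capn3 and the homeobox gene Gbx2. Kcnj5 had 107 and 99.2 CPM in members, against 0.452 and 0.282 CPM in the others. Gbx2 stood on few counts, with 52 and 60 UMIs in members, against 13 and 12 UMIs in the others.

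The promoters of these genes are shown because GATA factors are known to drive many megakaryocyte genes. Windows of 250 bases before to 50 bases after the start, taken from RefSeq on build GRCm38.p6, were found for 20 of the 25 genes and for all 6 rule genes, and none was found for the other 5, which include Cd226 and Gnaz. A GATA motif, which is AGATA or TGATA followed by A or G, on either strand, occurred in a window of 14 of the 20 genes, which is 70.0%, against 33.0% of all 27025 genes in the table. An ETS-type motif, CCGGAAG or CAGGAAG on either strand, occurred in 2 of the 20, which is 10.0%, against 23.1% of all. Of the 6 rule genes, 2 held the GATA letters and none held the ETS letters. A match is a run of letters and not a shown site. The windows of the first gene by that ranking, of 2 more genes with several matches and of the rule gene Pf4 are printed 5′ to 3′ on the strand of the gene, with matches of either motif in capitals. They lie at chr11:70638872-70639171, plus strand for Gp1ba, chr16:30310732-30311031, minus strand for Gp5, chr17:35085546-35085845, minus strand for Ly6g6f, and chr5:90772185-90772484, plus strand for Pf4.
Gp1ba: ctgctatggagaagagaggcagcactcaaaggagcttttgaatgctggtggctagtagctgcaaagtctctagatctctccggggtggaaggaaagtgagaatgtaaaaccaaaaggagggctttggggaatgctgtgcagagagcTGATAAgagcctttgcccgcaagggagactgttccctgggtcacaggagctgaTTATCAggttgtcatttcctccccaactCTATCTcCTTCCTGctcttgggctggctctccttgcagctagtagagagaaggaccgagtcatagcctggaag
Gp5: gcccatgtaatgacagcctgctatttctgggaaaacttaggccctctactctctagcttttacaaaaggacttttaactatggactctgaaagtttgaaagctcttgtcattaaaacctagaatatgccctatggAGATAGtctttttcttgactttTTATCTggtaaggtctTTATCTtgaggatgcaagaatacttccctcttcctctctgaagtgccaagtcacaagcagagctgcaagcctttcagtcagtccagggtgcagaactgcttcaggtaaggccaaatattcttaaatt
Ly6g6f: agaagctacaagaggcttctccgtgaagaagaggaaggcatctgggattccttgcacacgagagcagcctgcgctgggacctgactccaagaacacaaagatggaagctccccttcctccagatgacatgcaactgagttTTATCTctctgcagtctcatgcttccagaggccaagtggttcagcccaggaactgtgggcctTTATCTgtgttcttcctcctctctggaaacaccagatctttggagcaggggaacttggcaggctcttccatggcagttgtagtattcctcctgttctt
Pf4: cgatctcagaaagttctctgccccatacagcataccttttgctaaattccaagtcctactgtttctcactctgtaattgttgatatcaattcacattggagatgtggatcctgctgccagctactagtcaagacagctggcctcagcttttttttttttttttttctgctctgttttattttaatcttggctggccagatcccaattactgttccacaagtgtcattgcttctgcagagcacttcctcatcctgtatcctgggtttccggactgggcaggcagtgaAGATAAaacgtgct
The Gp1ba window held 3 GATA matches and 1 ETS match, the Gp5 window held 3 GATA matches, the Ly6g6f window held 2, and the Pf4 window held 1.

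The counts in the lists that follow stand beside 2.52% of all 17179 genes compared at least 4-fold higher and 3.77% at least 4-fold lower. Adhesion receptors were higher as a group. Of the 15 genes of the adhesion list outside the rule, 11 were at least 4-fold higher in members in both libraries and none was lower, and the median log2 ratio was 3.86 and 3.52. Itgb3, the partner of Itga2b in the fibrinogen receptor, had 1216 CPM (1170 to 1263) and 1287 CPM (1249 to 1326) in members, against 27.3 and 24.8 CPM in the others. Clec1b had 861 CPM (822 to 900) and 630 CPM (603 to 657) in members, against 4.46 and 2.12 CPM. Fcer1g and Pecam1, which many blood and vessel cells share, did not reach the limit. Fcer1g, the signalling chain that pairs with Gp6, had 601 and 538 CPM in members, against 548 and 471 CPM in the others. Pecam1 had 113 and 150 CPM in members, against 1004 and 1310 CPM in an endothelial class.

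Receptors for the agonists that activate platelets followed the same pattern, with 8 of 11 at least 4-fold higher and none lower. F2rl3, the thrombin receptor that signals in mouse platelets, had 119 CPM (105 to 135) and 113 CPM (102 to 125) in members, against 1.36 and 0.761 CPM in the others. Its cofactor F2rl2 had 609 and 705 CPM, against 3.42 and 2.76 CPM. F2r, a thrombin receptor best known from human platelets, had 283 and 301 CPM in members, against 32.4 and 35.0 CPM in the others and 211 and 198 CPM in the endothelial class. The ADP receptor P2ry1 was higher, with 212 and 186 CPM in members against 9.28 and 8.61 CPM, and the basophil class stood above both with 310 and 332 CPM. P2ry12, the other ADP receptor and a drug target, differed between the libraries, with 34.3 CPM (27.0 to 43.0) in members of library 1, against 1.38 CPM, and 4.80 CPM (2.74 to 7.79) in members of library 2, against 1.29 CPM. The macrophage class held it at 22.1 and 25.2 CPM.

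Downstream of the receptors, 8 of 18 signalling genes were at least 4-fold higher in members. These included Lat, the adaptor of the collagen receptor pathway, with 404 and 435 CPM in members against 8.49 and 5.97 CPM in the others. Rasgrp2 and Fermt3, which switch the integrin on, had 881 and 799 CPM and 1046 and 1028 CPM in members, against 64.0 and 81.2 CPM and 77.5 and 89.9 CPM in the others. Syk, Lcp2, Btk and Plcg2, kinases and partners that many white cells use, had log2 ratios of 0.64 to 1.89 and did not reach the limit. Stim1 and Orai1, the store-operated calcium entry pair, did not reach it either, with log2 ratios of 1.31 and 1.32 for Stim1 and 0.15 and 0.32 for Orai1.

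Alpha granule cargo was mixed, with 5 of the 15 genes with enough UMIs at least 4-fold higher outside the rule. They were Vwf, the clotting factor F5, Mmrn1, Clu and the chemokine Cxcl5. Vwf had 458 CPM (430 to 487) and 477 CPM (454 to 501) in members, against 182 and 266 CPM in the endothelial class, the next highest. Cxcl5 had 278 and 159 CPM in members, against at most 3.66 and 1.10 CPM in any of 6 comparison classes. P-selectin, Selp, was far lower than in vessels, with 424 and 540 CPM in members, against 4939 and 6212 CPM in the endothelial class.

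Some cargo genes depended on which members were summed. Sparc, which bone-forming cells also make in quantity, had 5862 and 2753 CPM in all members but 607 and 556 CPM in members with 3% or more of their UMIs in the rule genes, against 13818 and 12319 CPM in all other barcodes. Lox had 164 and 49.5 CPM in all members and 18.8 and 16.9 CPM in those of 3% or more. The stromal and bone list differed between the same sets of members, as given above, and its part in these levels was not tested. Thbs1 was close to the other barcodes, with 1187 and 1259 CPM in members, against 1069 and 820 CPM. F13a1, which encodes a cross-linking factor of clots, was not above the others, with 73.2 and 32.7 CPM in members, against 73.3 and 70.9 CPM.

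Genes that build and release granules were less distinct than the receptors, with 4 of 16 at least 4-fold higher, against 2.52% of all genes compared. Rab27b, a secretion regulator of dense granules, had 603 and 634 CPM in members, against 16.6 and 16.1 CPM in the others. Slc35d3, which is needed for dense granules in mice, had 199 and 226 CPM, against 1.63 and 3.01 CPM. Slc18a2, a vesicular amine transporter, had 49.4 and 43.5 CPM in members, against 1351 and 1823 CPM in the basophil class. Nbeal2, the gene of grey platelet syndrome in humans, had log2 ratios of 1.43 and 1.91.

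Cytoskeletal genes of proplatelet formation were higher, with 12 of 20 at least 4-fold higher and medians of 2.25 and 2.29 on the log2 scale. Tuba4a, an alpha-tubulin of platelets, had 1199 and 1210 CPM in members, against 190 and 252 CPM in the others. Myl9, the myosin light chain, had 464 and 344 CPM, against 21.4 and 35.0 CPM, and Parvb, an integrin-linked adaptor, had 457 and 419 CPM, against 16.4 CPM in both libraries. Of these 20 genes, 18 were higher in members than in each of the 6 comparison classes in both libraries. Pericytes, smooth muscle and stromal cells are not among those classes, and the same count was not made over all genes. Tubb1, the beta-tubulin of platelets, was nevertheless at only 12.8 CPM (8.51 to 18.5) and 11.7 CPM (8.31 to 16.0) in members, against 1.47 and 0.381 CPM in the others.

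Enzymes that turn arachidonic acid into platelet mediators were also higher, with 5 of 7 past the limit. Alox12 had 489 and 374 CPM in members, against 2.34 and 1.60 CPM in the others. The thromboxane synthase Tbxas1 had 266 and 237 CPM, against 8.67 and 7.67 CPM, and the cyclooxygenase Ptgs1 had 183 and 219 CPM, against 25.3 and 31.3 CPM. The inducible cyclooxygenase Ptgs2 was lower, with 102 and 33.6 CPM in members, with log2 ratios of -1.30 and -2.30 against the others.

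Shares of barcodes with a UMI were compared in library 1 after every barcode was thinned to 1000 UMIs, with 500 barcodes drawn from the neutrophil class. Gp1ba then had a UMI in 22.8% of members (18.4 to 27.7), against 0 of the 500, where the exact upper bound is 0.735%. Unthinned, these shares were 41.9% and 0%. Tgfb1, which many cells make, was found in 50.2% of members (44.6 to 55.7), against 22.5% of the endothelial class (16.7 to 29.1), and unthinned in 76.9% and 58.8%. Median depths before thinning were 2432 UMIs in members, against 3867 UMIs in the neutrophil and 4101 UMIs in the endothelial class. In library 2, thinned in the same way, Gp1ba had a UMI in 23.3% of members (19.5 to 27.5), against 1 of 500 neutrophil barcodes. Unthinned, these shares of library 2 were 44.0% and 0.4%.

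**Figure D2:**
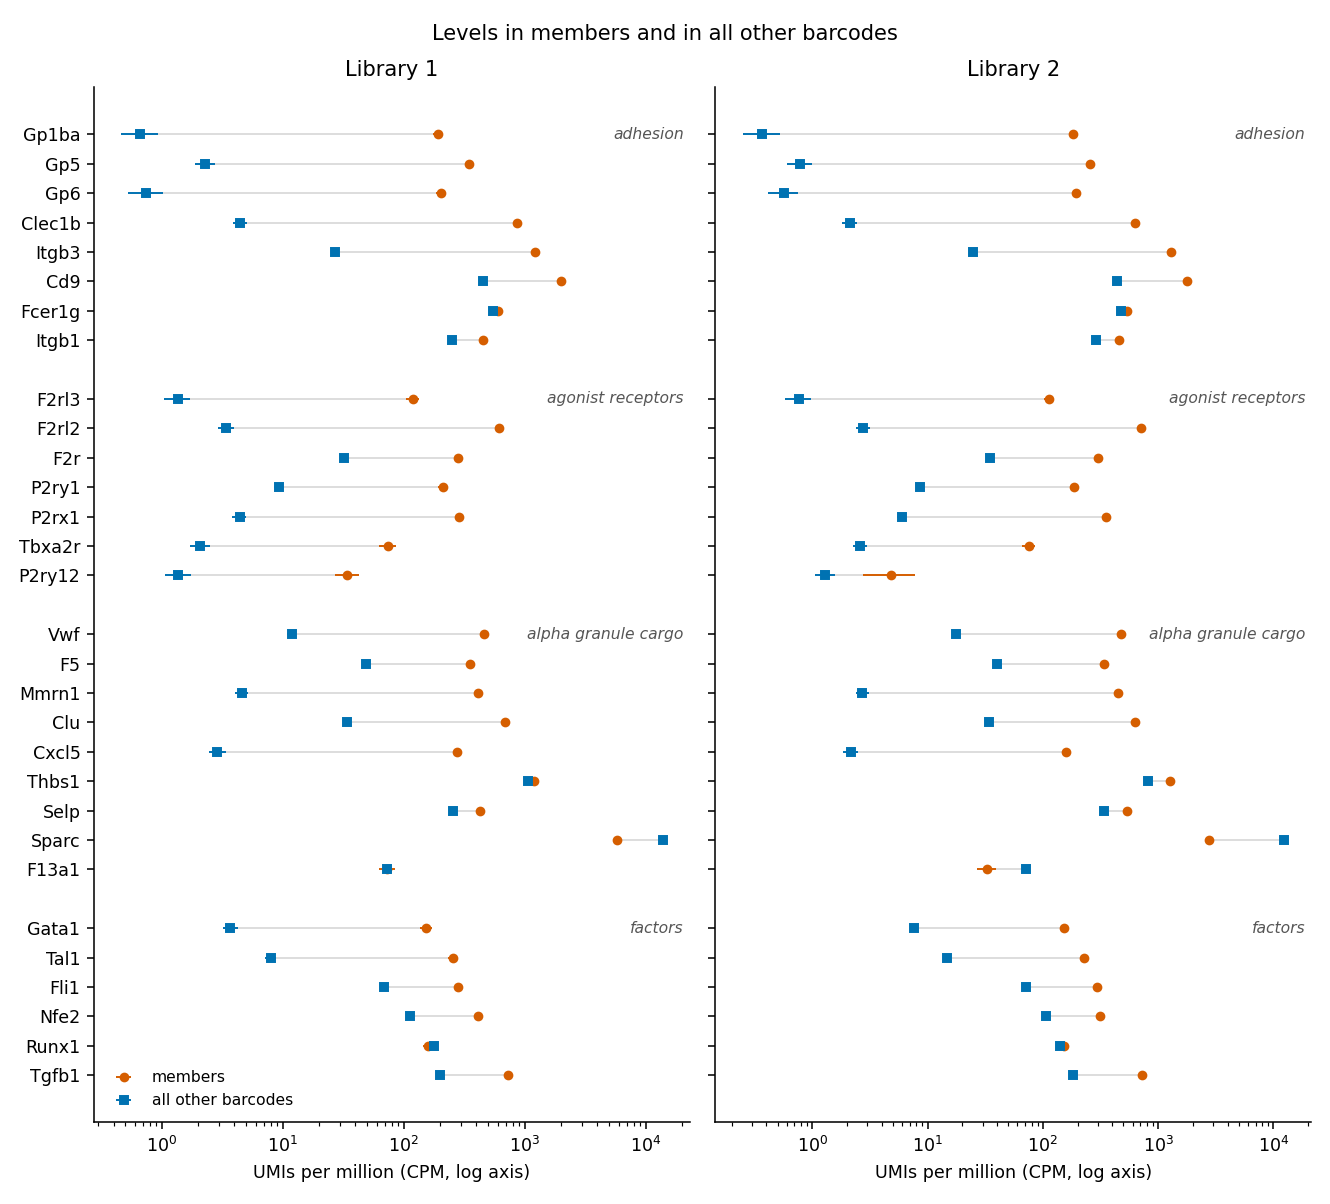
Circles give members and squares all other passing barcodes, as summed CPM on a log axis, with exact 95% Poisson intervals. Receptors such as Gp1ba, Gp6 and F2rl3 are furthest apart, while Fcer1g and Runx1 lie together and Sparc is lower in members.

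Among transcription factors, 9 of 17 were at least 4-fold higher in members and none was lower. When each barcode weighed the same, as the mean CPM of single barcodes, Gata2, Zfpm1, Fli1 and Gfi1b no longer reached the limit. Several of these factors are shared with the red-cell lineage and were also present in an erythroid class of 70 and 536 barcodes. Gata1 had 154 CPM (138 to 171) and 154 CPM (141 to 168) in members, against 132 and 92.5 CPM in the erythroid class. Gfi1b, a repressor of both lineages, had 96.5 and 54.0 CPM in members, against 168 and 151 CPM in the erythroid class, and Zfpm1, a partner of Gata1, had 152 and 137 CPM, against 161 and 171 CPM. Tal1 and Meis1 were higher in members than in each of the 6 comparison classes, with 255 and 227 CPM for Tal1 and 89.7 and 88.7 CPM for Meis1. Gata2 was highest in the basophil class, with 99.3 and 88.1 CPM in members against 1196 and 1300 CPM there. Runx1, which is needed for megakaryocyte maturation, did not stand out, with 161 and 154 CPM in members, against 177 and 140 CPM in all other barcodes.

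Among genes of cytokine signalling, the kinase Jak2 had 193 and 160 CPM in members, against 147 and 96.9 CPM in the others. Slamf1, a surface protein also known from blood stem cells, was higher, with 112 and 79.5 CPM in members, against 2.63 and 1.22 CPM. Kit, the receptor of progenitors, had 15.1 and 25.2 CPM in members, against 516 and 234 CPM in a class of Kit-positive progenitors that was defined by it. None of 8 survival genes passed the limit, which says little, since only 2.52% of all genes compared were that much higher. Bcl2l1, which sets the life span of platelets, had log2 ratios of 1.66 and 1.75.

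Growth factors and bone genes were mostly not higher, with a median log2 ratio of -0.95 and -1.65, against -0.19 and -0.14 over all genes. Of 22, only Angpt1, a ligand of the vessel receptor Tie2, was at least 4-fold higher, with 187 and 192 CPM in members, against 9.16 and 10.9 CPM in the others. Over all genes compared the share was 2.52%, so 1 of 22 does not set the list apart. Tgfb1 did not reach the limit, but its 729 CPM (694 to 766) and 719 CPM (690 to 748) in members, against 198 and 181 CPM in all others, exceeded each comparison class, of which the highest were at 285 and 281 CPM. Pdgfb had 84.2 and 74.1 CPM in members, against 472 and 309 CPM in the endothelial class. Spp1 and Bmp6 were at least 4-fold lower. The osteoclast factor Tnfsf11 and its decoy receptor Tnfrsf11b had 10.5 and 5.70 CPM and 8.24 and 2.70 CPM in members, against 33.9 and 25.0 CPM and 19.1 and 27.2 CPM in the others. Members of 3% or more had 3.76 and 1.74 CPM of Tnfsf11 and 0.751 and 0.581 CPM of Tnfrsf11b.

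**Figure D3:**
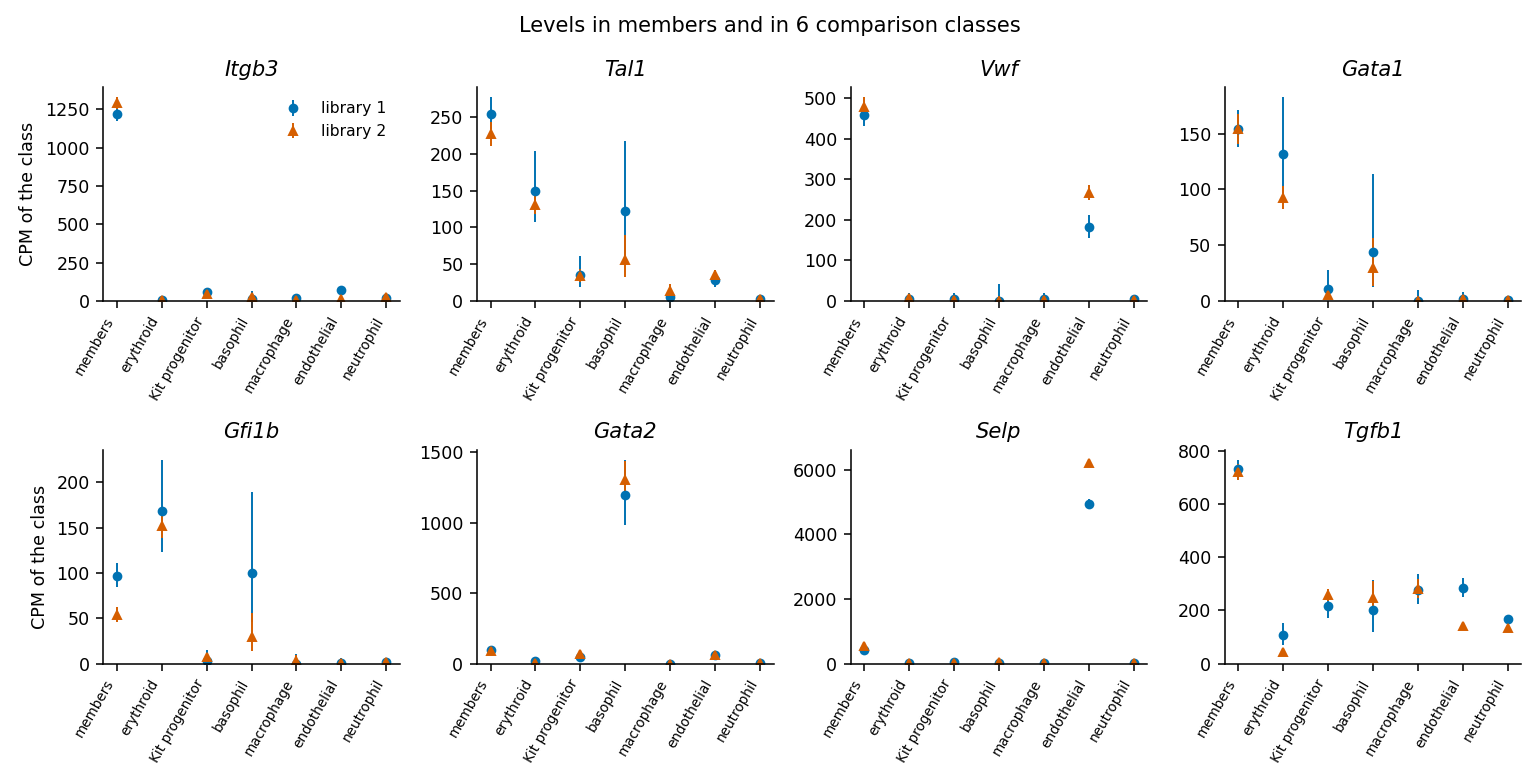
Summed CPM of 8 genes in members and in 6 classes of other barcodes, by library, with exact 95% Poisson intervals. Itgb3, Tal1 and Tgfb1 are highest in members, Gfi1b in the erythroid class, Gata2 in the basophil class and Selp in the endothelial class.

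The classes were set by low minimums of a few marker genes and are not pure. The neutrophil class held Sparc at 14055 and 7475 CPM, and free RNA held it at 13007 and 11948 CPM. The basophil class had 20 and 50 barcodes. The macrophage class, of 56 and 140 barcodes, held Pf4 at an interval of 898 to 1107 CPM in library 1 and 1868 to 2051 CPM in library 2, against 24820 and 25850 CPM in members and with 1207 and 1211 CPM in free RNA.

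Within members, levels differed with depth, in part through the rule itself. Its minimums are fixed counts, so a shallow barcode had to hold a larger share of the rule genes than a deep one. In the lowest tier 2 of 135 and 0 of 175 members were under 1%, against 23 of 50 and 33 of 79 in the deepest. Falls of platelet genes over all members are therefore no finding apart from the rule. The cytoskeleton list summed to 18569, 15176, 10064 and 9806 CPM from the lowest to the highest of 4 depth tiers of library 1, split at 2000, 5000 and 10000 UMIs, and to 16369, 16317, 11422 and 8876 CPM in library 2. The adhesion list stood at 11135 CPM (10659 to 11627) in the lowest tier and 6100 CPM (5971 to 6230) in the highest tier of library 1, and at 9997 CPM (9602 to 10404) and 5374 CPM (5277 to 5472) in library 2. Among members at 3% or more, the first 3 tiers of the cytoskeleton list stood at 20315 to 21490 CPM in library 1 and 17290 to 22529 CPM in library 2, and the deepest tier was lower than each of these, with 12918 CPM (12685 to 13155) and 14073 CPM (13842 to 14308).

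Cell cycle genes were higher in the deepest tier. The list of 22 genes summed to 2032, 1475, 1480 and 2720 CPM over the tiers of library 1 and to 1280, 1439, 1938 and 2619 CPM in library 2. Among members at 3% or more it was 2947 CPM (2836 to 3061) and 1902 CPM (1818 to 1990) in the deepest tier, against 1829 CPM (1611 to 2069) and 1076 CPM (942 to 1223) in the lowest. The same direction was seen outside the members, where all other barcodes had 2520 and 3019 CPM in the deepest tier, against 1053 and 1529 CPM in the lowest, and free RNA had 1789 and 2235 CPM. None of the 22 genes was 4-fold higher or lower in members as a whole, against 2.52% and 3.77% of all genes compared.

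**Figure D4:**
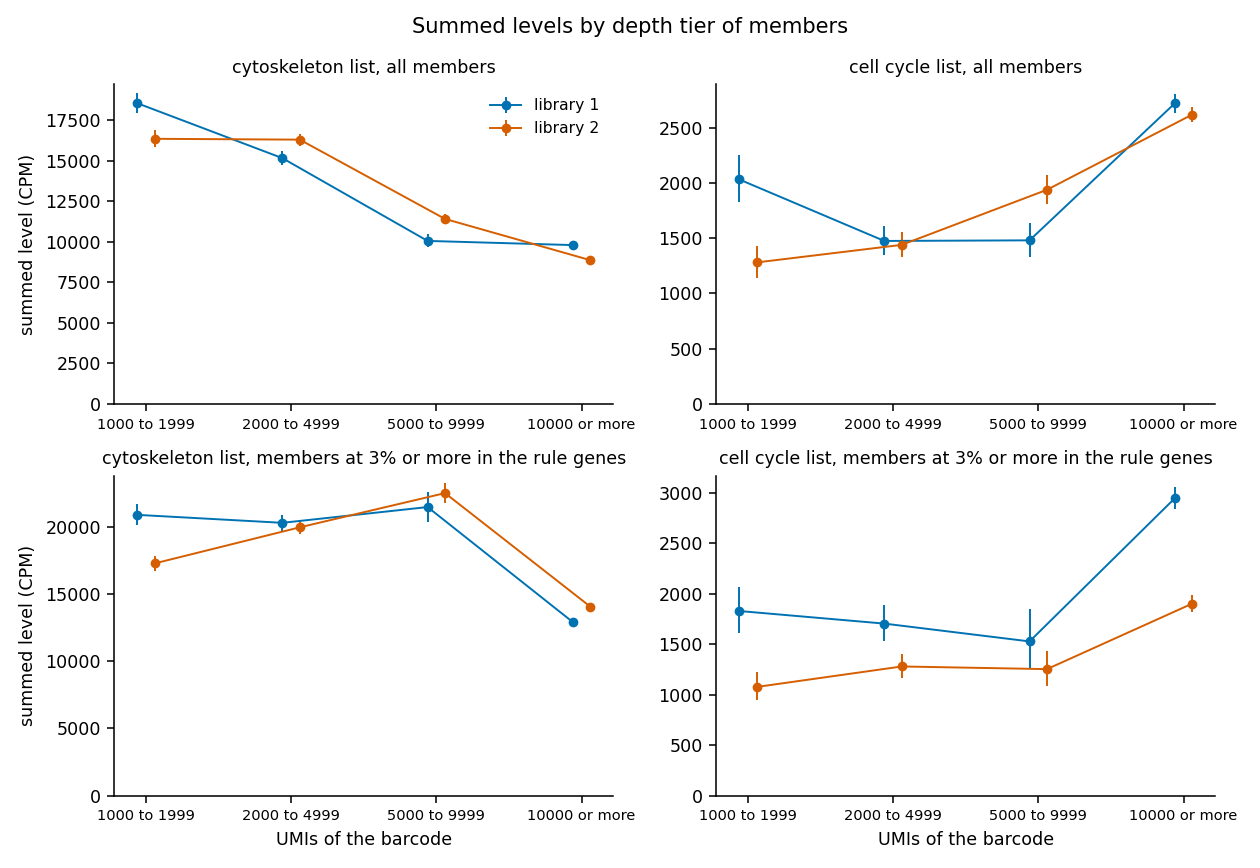
Summed CPM of the cytoskeleton and cell cycle lists by depth tier, with exact 95% Poisson intervals. The upper row shows all members and the lower row those with 3% or more of their UMIs in the rule genes, where the cytoskeleton list drops only in the deepest tier.

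The single genes that differed most between tiers were of 2 kinds. Cmss1, Cdk8 and the ribosomal RNA sequence Rn18s-rs5 were lower in the deepest than in the lowest tier, with 95.2 and 95.1 CPM of Cmss1 there, against 2948 and 3563 CPM in the lowest tier. Free RNA held Cmss1 at 3336 and 3532 CPM, and the lowest tier of all other barcodes held it at 1224 and 2186 CPM, so this direction was not confined to members. Thbs1, Myl9, Alox12, Gp5, Tpm2 and Cald1 came next, with 781 and 811 CPM of Thbs1 in the deepest tier, against 2092 and 2349 CPM in the lowest. All other barcodes had the same direction for Thbs1, with 567 and 495 CPM in the deepest tier, against 2016 and 1367 CPM in the lowest, and for Myl9, with 7.91 and 16.8 CPM, against 25.8 and 52.2 CPM. Alox12 and Gp5 were also lower there in the deepest tier, on few UMIs. Tpm2 was nearly level there in library 1, with 37.0 CPM in the deepest tier against 38.7 CPM in the lowest. In library 2 it had 51.6 CPM against 68.0 CPM. Cald1 went the other way in library 1, with 113 CPM in the deepest tier against 72.6 CPM, and had 101 CPM against 110 CPM in library 2. The genes most raised in the deepest tier were Ampd2, an AMP deaminase, Clec11a, Exosc7, Itprid2, Nup210, Cenpq, Gm42047, Nfix, Nxt1 and H1f10. They stood on few counts in the lowest tier, where Ampd2 had 1 UMI in each library. H1f10, a linker histone, had 0 UMIs there, against 44.8 CPM in the deepest tier of both libraries. Most of these genes had the same direction in all other barcodes. Ampd2 had 32.2 and 39.0 CPM in their deepest tier, against 11.7 and 12.8 CPM in the lowest. Itprid2 was level there in library 1 and had 36.7 CPM against 50.7 CPM in library 2. Nfix had 45.7 CPM against 49.3 CPM in library 2, and the intervals of H1f10 overlapped in both libraries.

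Deep members differed in how much of the platelet genes they held. The sets below are members with 10000 or more UMIs that carried no other type by the 1% limit, which can miss endothelial genes. Of these members, 21 and 27 had 3% or more of their UMIs in the rule genes, 2 and 13 had 1 to 3%, and 9 and 16 had under 1%. The split uses the rule genes and was made after they had been seen, so it is a description. In the set of 3% or more, Ppbp was present in all 21 and 27 barcodes, with a median of 6081 CPM (range 252 to 21862) in library 1 and 8993 CPM (109 to 23003) in library 2. In the set of 1 to 3%, Pf4 lay at 8510 to 14803 CPM per barcode in library 1 and 9965 to 25231 CPM in library 2, a range that the split itself bounds, and both barcodes of library 1 and 4 of 13 in library 2 had no UMI of Ppbp and the highest had 439 CPM.

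Genes outside the rule differed between these sets to different degrees. In library 2, the set of 1 to 3% had 36.4 CPM (21.9 to 56.9) of Gp1ba, 34.5 CPM (20.4 to 54.5) of Thbs1 and 11.5 CPM (4.22 to 25.0) of Alox12, against 291, 1636 and 543 CPM in the set of 3% or more. Myl9 had no UMI in the set of 1 to 3% in either library, against 454 and 481 CPM in that of 3% or more. Other genes were less different, with 324 CPM (277 to 377) of Vwf against 723 CPM and 353 CPM (304 to 407) of Fli1 against 338 CPM. Slc35d3 had 349 CPM against 347 CPM, and Angpt1 had 243 CPM against 215 CPM.

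In the set under 1%, Gp1ba had no UMI in its 9 barcodes of library 1 and 10.1 CPM in library 2, and Gata1 had 11.8 CPM (1.43 to 42.7) and 43.8 CPM (23.3 to 74.9), against 221 and 232 CPM in the set of 3% or more. Kit had 70.9 CPM (36.7 to 124) and 87.6 CPM (57.2 to 128), against 1.14 and 5.88 CPM, and Gata2 had 171 CPM (115 to 246) and 175 CPM (131 to 230), against 111 and 94.0 CPM. Runx1 differed by less than counting error, with 166 and 175 CPM against 167 and 172 CPM. In library 2 a single barcode of this set held 321 of its 338 UMIs of the endothelial list. With that barcode the list was at 1139 CPM, and without it, a choice made after the values were seen, at 71.2 CPM (41.5 to 114), against 162 CPM in the set of 3% or more. Without it Selp was at 96.3 CPM in place of 1557 CPM, while Gata1 was at 54.4 CPM, Kit at 105 CPM and Gata2 at 197 CPM. With that barcode kept, the monocyte and macrophage list was also higher in the set under 1%. It had 414 CPM (323 to 523) and 256 CPM (202 to 321), against 88.0 and 43.5 CPM in the set of 3% or more. The stromal and bone list was higher there too, with 2099 CPM (1886 to 2329) and 748 CPM (653 to 853), against 1365 and 393 CPM. In library 2 the B-cell list had 145 CPM against 44.7 CPM, and in library 1 it had 76.9 CPM against 77.7 CPM. Not every list went this way, and the erythroid list had 266 and 741 CPM, against 275 and 1181 CPM. The list of 10 stem and progenitor genes was clearly higher in library 2 only, with that barcode kept. It had 432 CPM (338 to 543) in library 1, against 398 CPM (357 to 442) in the set of 3% or more. In library 2 it had 570 CPM against 286 CPM.

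The proliferation gene Mki67 also differed between the sets. In library 2 it had 489 CPM (412 to 575) in the set under 1%, or 607 CPM (512 to 714) without that barcode, and 613 CPM (548 to 684) in that of 1 to 3%, against 240 CPM (208 to 275) in that of 3% or more. In library 1 it had 987 CPM (843 to 1149) under 1% and 446 CPM (276 to 682) at 1 to 3%, a set of 2 barcodes, against 487 CPM (442 to 535) at 3% or more. The median depth of these sets was 14236 UMIs under 1% and 38082 UMIs at 1 to 3% in library 2, against 28630 UMIs at 3% or more, and 12135 UMIs under 1% in library 1, against 31457 UMIs. The part of depth in these levels was not tested.

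**Figure D5:**
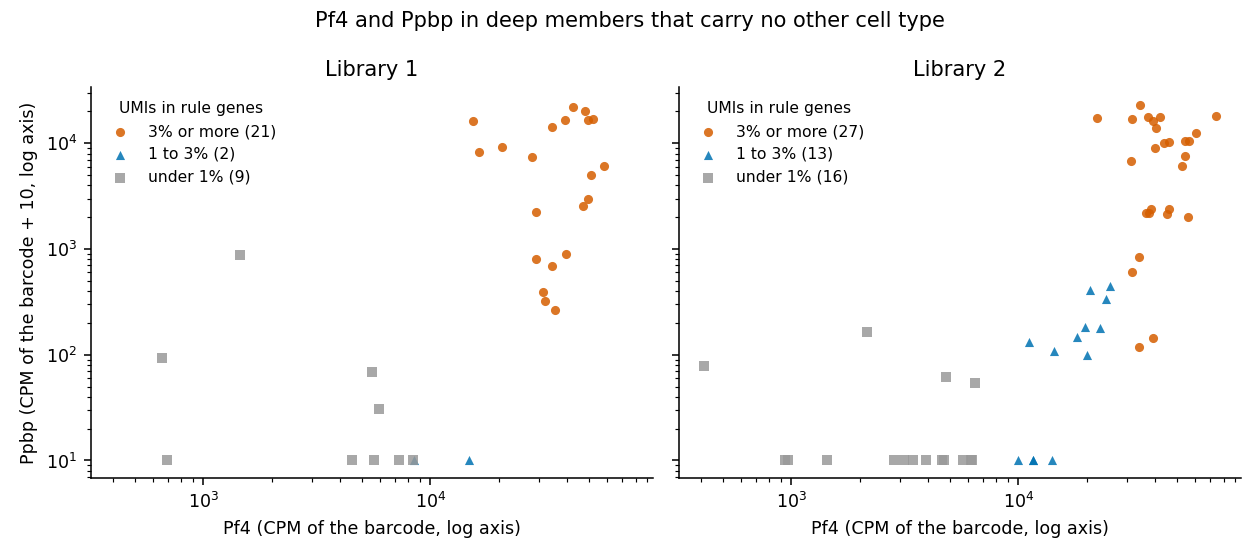
Each point is a member with 10000 or more UMIs that carries no other type. The axes give its Pf4 and its Ppbp in CPM on log scales, with 10 added to Ppbp so that zeros can be drawn, and the shapes give the share of UMIs in the rule genes. Barcodes of 1 to 3% have Pf4 at or above 8510 CPM but Ppbp at or under 439 CPM.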

How the data were processed

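The authors deposited, for each of 2 libraries, a matrix of whole-number UMI counts per feature and barcode, with all barcodes kept and no normalization, per the file headers. FastQC 0.11.9 and the builds GRCh38 and mm10 are named in the submitters' processing notes, without a role. Aligner, counting program, annotation and use of strand: not given in the sources used here. Reads of overlapping or antisense genes cannot be told apart. Features without a mouse gene identifier held 0.602% and 0.431% of UMIs and were left out.

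Members, marker lists and gene lists were chosen with earlier results of these data known. Counts were summed over members and over all other passing barcodes of a library and scaled to CPM. Genes with at least 20 UMIs in members or the others in each library were compared, a gene was called at a ratio of 4 in both libraries, and 0.5 UMIs stood for 0 in a ratio. With 1 pooled library each and no group label, no test was made. Intervals are exact Poisson for CPM and exact Clopper-Pearson for shares, and PCR and droplet effects are outside them. Genes named are those of 14 functional lists, the 25 with the largest ratio in the lower of the libraries (at least 50 UMIs in members), and the 10 most raised and 10 most lowered between the deepest and the lowest tier. Kit-positive progenitor, erythroid, macrophage, endothelial, neutrophil and basophil classes were set by small marker minimums. The share groups at 1% and 3% and the split of deep members were added after the data were seen. The comparison code was tested on simulated data. Python 3.11.15, numpy 2.4.6, scipy 1.17.1 and pandas 2.3.3 were used. Alternatives changed the minimum of UMIs, the marker and mitochondrial limits, the rule on other cell types, the gene filter, the scaling, the weight of barcodes and the depth. Some genes are not reported here.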

Additional observations from a re-analysis of the deposited data

Results flagged for a closer look

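Barcodes below the minimum of 1000 UMIs also held the marker genes. They are not members, and the report uses them only beside the depth threshold and in alternatives with a lower minimum. Between 50 UMIs and that minimum, 467 of 106924 barcodes of library 1 and 315 of 124824 barcodes of library 2 met both marker minimums, which is 0.437% and 0.252%. From 500 UMIs upward it was 11.2% and 5.98%, in 227 and 188 barcodes. The marker minimums are fixed counts, so shallower barcodes had to hold a larger share of these genes to meet them.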

How the results depend on the processing

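The number of members followed the minimum of UMIs, with 555 in library 1 at 500 UMIs, and 194 and 284 in the libraries at 2000 UMIs, and 208 in library 1 had 3% or more of their UMIs in the rule genes. The percent carrying another type was 62.0% and 54.0% at a limit of 0.5%, 21.9% and 20.9% at 2%, and 26.9% and 24.1% among members of 3% or more. Genes at least 4-fold higher numbered 3011 without a minimum of UMIs per gene, against 433, and 322 to 602 under the other alternatives, with 426 of the 433 kept among members of 3% or more. Genes at least 4-fold lower moved more, with 1644 at doubled marker minimums, 1903 in members that carry no other type, 2442 in members of 3% or more and 1341 by the mean CPM of single barcodes, against 648. Of 82 named genes called higher or lower, 75 kept their call in every alternative run and none turned direction, and mean CPM of single barcodes ended 6 calls, those of Htr2a, Gata2, Zfpm1, Fli1 and Gfi1b among them, a minimum of 500 UMIs ended 1 call, and a minimum of 2000 UMIs ended that of Cd9.

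The log2 ratio of the deepest over the lowest tier kept its sign in every alternative run. In library 1 the adhesion list was at -0.87, with -0.61 in members that carry no other type and -0.54 at 3% or more. The cytoskeleton list was at -0.92, with -0.72 and -0.69 in these and -1.01 after thinning, and the cell cycle list was at 0.42, with 0.60 and 0.69 in these and 0.23 after thinning. In library 2, members of 3% or more had -0.27, -0.30 and 0.82 for the 3 lists, against -0.90, -0.88 and 1.03, and the cytoskeleton list was at -0.94 after thinning. The cause of these shifts was not tested. No paired analysis was possible because each library is 1 pool and no label ties it to a group or a partner. Genes of few UMIs, such as Gbx2, Tubb1 and P2ry12, are limited by counting error.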
